A study of Mus musculus with 8 samples.

Results

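The mitochondrial ribosomal protein genes were described across single-cell RNA sequencing libraries of mouse thymic epithelial cells (TEC), the stromal cells that instruct developing T cells. They were taken as every gene whose symbol starts with Mrpl or Mrps and a digit, which gave 77 of the 27998 genes listed in data set 1. All 77 were found by Ensembl identifier in the gene list of data set 2, which holds 31053 genes. By symbol, 48 belong to the large subunit (Mrpl) and 29 to the small subunit (Mrps). The symbols are older than the structures of the particle, in which the proteins of Mrps30 and Mrps18a lie in the large subunit.

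The mitochondrial ribosome is the particle that translates the few messenger RNAs encoded by mitochondrial DNA, which specify core subunits of the respiratory chain and ATP synthase. Its RNA is made inside the organelle, whereas all of its proteins are encoded in the nucleus, translated by cytosolic ribosomes and imported. A part of these proteins descends from bacterial ribosomal proteins, and the others were gained later and build much of the outer surface. Here 46 members were placed in the first class and 31 in the second.

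All cells came from wild-type (WT) mice of strain C57 B6 (CD45.2), with thymus given as the tissue, and were sorted as DAPI- EpCAM+ CD45- cells. The 8 libraries formed 6 groups. E13.5 TEC, 1 library, was gated no further, because cortical and medullary cells cannot be parted by these surface markers at that age. Cortical TEC (cTEC) were Ly51+ UEA-1- and came from 4 ages, E15.5 and E17.5, birth (NB) and the adult, and medullary TEC (mTEC) were Ly51- UEA-1+ and were taken in the adult. Both adult groups had 2 libraries, 1 in each data set, and every other group had 1. Data set 1 held E13.5, E15.5, NB and replicate 1 of both adult groups, and data set 2 held E17.5 and replicate 2 of both adult groups. No label says how many mice a library pooled. The adult replicates of a group came from different data sets, so their spread also holds the difference between data sets.

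After filtering, 25273 of 28334 deposited cells were kept, from 489 in adult cTEC replicate 1 to 8304 at E17.5, with 2140157 to 89369953 unique molecular identifiers (UMIs, 1 per captured transcript) per library. Any 2 libraries shared at most 84 cell barcodes, which was 1.196% of the smaller library of that pair. In E15.5, E17.5 and NB cTEC the genes that define the cortex, Psmb11 and Prss16, were at 1344 to 1476 and 2341 to 3710 CPM (UMIs scaled to a common library total). In adult mTEC they were at 8.56 and 36.5 CPM or below. Adult cTEC replicate 1 was the shallowest library and stood apart in its markers. The 8 mTEC markers took 0.613% of its UMIs, with Ccl21a at 5444 CPM, against 0.135% and 933 CPM in adult cTEC replicate 2. In replicate 1, 33.5% of kept cells had no UMI of Psmb11 or Prss16, against 20.8% in replicate 2 and at most 0.561% in E15.5, E17.5 and NB cTEC. Such a UMI was also found in 25% and 29.5% of adult mTEC, which were deeper (median 9444 and 11352 UMIs per cell against 3965 and 6981), so a single UMI does not prove a cortical cell. The steps and fits that use adult cTEC were repeated in cells with such a UMI, and the counts that changed are given beside them. Thymocyte markers took at most 0.00439% of UMIs in any library. Mesenchymal markers took 0.0510% and 0.0336% in adult cTEC, 0.00953% and 0.00652% in adult mTEC and at most 0.00269% in the other libraries. In adult cTEC these UMIs were nearly all of Dcn, at 503 and 329 CPM. Col1a1 and Pdgfrb went the other way, with at most 0.467 CPM in adult cTEC and 5.29 to 7.90 CPM in adult mTEC. Myeloid markers took 0.0229% and 0.00534% in adult cTEC, 0.0428% and 0.0550% in adult mTEC and at most 0.00133% elsewhere. Haemoglobin genes took 0.0121% and 0.0174% in adult mTEC, at most 0.000159% in adult cTEC, 0.0351% in E17.5 cTEC and at most 0.00436% elsewhere. The mesenchymal share (mainly Dcn), the myeloid share and the haemoglobin share thus move with the adult comparisons below. Their part in those was not tested.

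As a group the members were well detected. The median cell held 24 to 79 member UMIs and showed 19 to 42 of the 77 genes, depending on the library. Over the 8 libraries the median member had a mean of 90.5 CPM, and 33 members exceeded 100 CPM. UMIs at the 3′ end count transcripts without regard to their length, so that these levels compare molecules between genes, apart from differences in capture. The genes kept much the same order of level everywhere. Over the 77 members, Spearman's rho between 2 libraries ran from 0.834 (NB cTEC with adult mTEC replicate 2) to 0.970 (both adult cTEC), a description across genes that are not independent replicates.

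The highest mean level was that of Mrpl52, a large subunit protein with no bacterial counterpart, at 323 CPM. Mrps24, the homolog of a small subunit protein at the messenger RNA entry site, followed at 311 CPM. Mrpl14 (272 CPM), Mrps33 (235 CPM) and Mrps21 (227 CPM) came next, and the 5 highest genes together held 16.8% of the summed member level. Mrps24 was not steady among them. E13.5 TEC had 427 CPM and E15.5 cTEC 567, followed by 363 in E17.5 cTEC, 402 in NB, 215 and 252 in the adult cTEC libraries, and 131 and 133 in the adult mTEC libraries. All cTEC libraries thus lay above both mTEC libraries, although the estimate for adult cTEC over mTEC, 0.76 (SE 0.39) on the log2 scale, did not pass (edgeR adjusted p = 0.122). Exons of Mrps24 overlap Urgcp on the same strand, so the counting could have split reads between them. At the low end, Mrps27 had a mean of 14.4 CPM and Mrps2 of 8.80 CPM. Mrpl53 had a mean of 0.40 CPM and never exceeded 0.805 CPM, and it was the only member that could not be tested. In all, exons of 32 members overlap another annotated gene, on the same strand for 8 of them.

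The summed members held 1.003% of all UMIs in E13.5 TEC and 0.984% in E15.5 cTEC. Their share was 0.758% at E17.5, 0.903% in NB cTEC, and 0.641% and 0.766% in adult cTEC replicates 1 and 2. In adult mTEC it was 0.740% and 0.730%. The 3 highest shares were thus those of E13.5, E15.5 and NB, all in data set 1, while the E17.5 library of data set 2 lay at the level of the adult. The adult cTEC mean was 0.704% ± 0.0880 (SD, n = 2) and the adult mTEC mean 0.735% ± 0.00687 (SD, n = 2), and the difference was smaller than the distance between the cTEC replicates. Exact 95% intervals from counting alone were narrow, the widest from 0.631% to 0.652% in adult cTEC replicate 1.

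The 84 genes of cytosolic ribosomal proteins, which form the ribosome of the cytoplasm, gave another order of libraries. Their share was 26.0% in E13.5 TEC, 24.6% in E15.5 cTEC and 26.5% in E17.5 cTEC, then 15.4% in NB, 13.2% and 19.2% in adult cTEC and 17.03% and 22.1% in adult mTEC. E17.5 thus had the highest cytosolic share and, beside the 4 adult libraries, one of the lower mitochondrial shares. Because so many UMIs belong to these genes, the member share was also taken over the remaining UMIs. It was then 1.36%, 1.31%, 1.03% and 1.07% from E13.5 through E15.5 and E17.5 to NB. In the adult it was 0.739% and 0.948% for cTEC and 0.892% and 0.938% for mTEC, so all 4 adult libraries lay below all earlier ones on this scale.

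**Figure D1:**
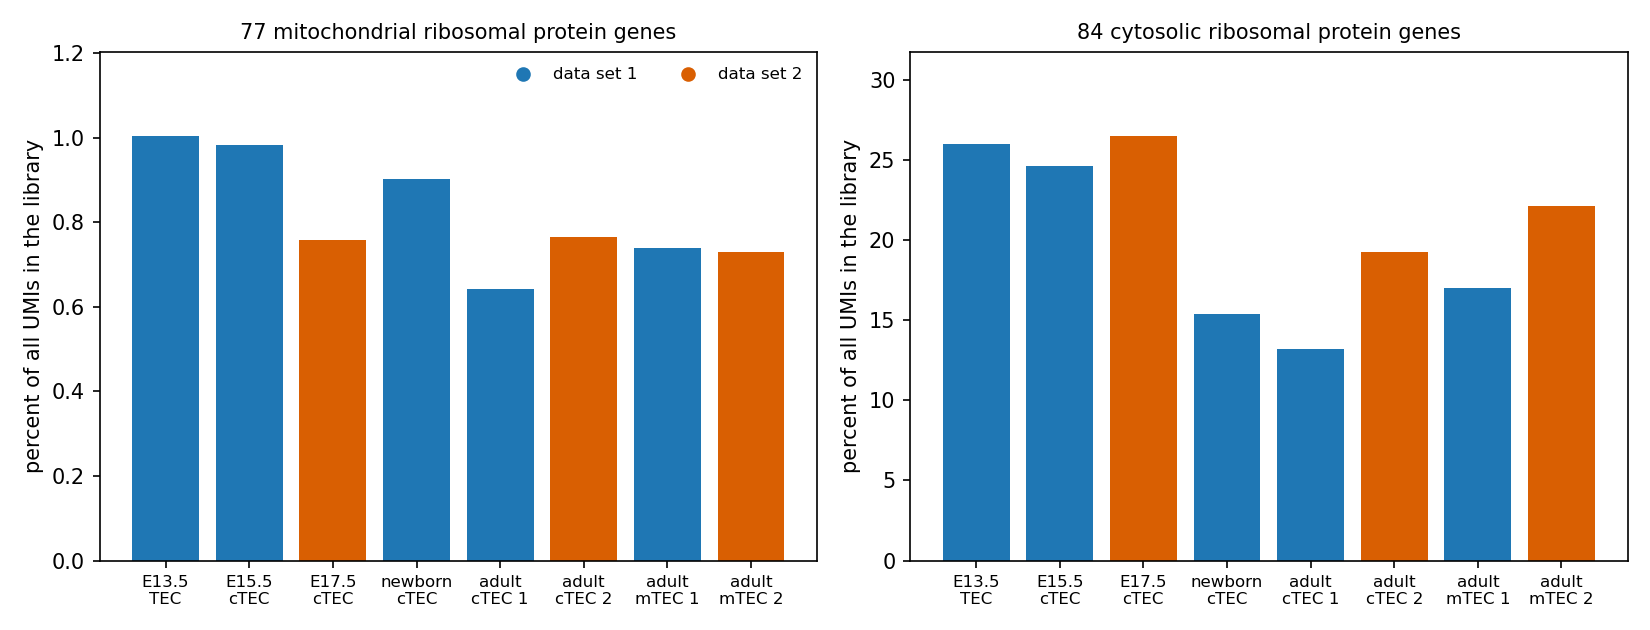
Share of all UMIs, in percent, taken by the 77 mitochondrial (left) and the 84 cytosolic ribosomal protein genes (right) in each of the 8 libraries, with colour for the data set and 1 bar a library. The mitochondrial share runs from 0.641% to 1.003% and is highest at E13.5 and E15.5, whereas the cytosolic share is highest at E17.5 at 26.5%.

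To follow the members through development, each stage was set against the preceding one within a data set. A step compares 1 library with 1 library, so there is no test. Values are log2 ratios of CPM + 10, and members of at least 10 CPM on average over both libraries were counted as past the fold at 1.5-fold. From E13.5 TEC to E15.5 cTEC the 76 members counted had a median of -0.06, beside -0.05 over all 8189 genes and -0.05 over the cytosolic genes. None was past 1.5-fold higher and 3 were lower, when 9.51% of all genes were past it upward and 10.7% downward. The 3 were Mrps30, from 46.0 to 21.3 CPM (ratio 0.463, 95% interval 0.414 to 0.518), Mrpl19, from 79.8 to 45.8 CPM, and Mrps5, from 185 to 118 CPM. The largest increases were those of Mrps7, from 135 to 197 CPM, Mrpl24, from 103 to 149 CPM, and Mrpl14, from 229 to 316 CPM. The gate also changed in this step, from total TEC to cTEC. Parathyroid markers went from 0.0831% to 0.00882% of UMIs and mTEC markers from 0.0944% to 0.0172%. Cells with a Psmb11 or Prss16 UMI went from 80.6% to 99.4%, and the part of the gate was not tested. Cycling cells, those with at least 0.4% of UMIs in genes of the S and G2M phases, went from 81.2% to 33.8% in this step. In the other cells the median turned to 0.010, with 40 members above 0 and 36 below, and 2 were past the fold in each direction, beside 8.28% and 10.5% of all genes. Intervals of ratios here and below are exact and cover counting error only.

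From E15.5 to NB cTEC the median of the members was -0.08, against -0.01 over all genes and -0.68 over the cytosolic ribosomal protein genes. The cytosolic genes were thus lower at birth, while most mitochondrial ones lay within 1.5-fold of their fetal level. Where CPM was taken outside the cytosolic genes the member median was -0.24, with 13 members above 0 and 63 below, against 28 and 48 on the scale of all UMIs. On the scale of all UMIs 1 member was past the fold upward and 2 downward, beside 9.19% and 6.66% of all genes. Fetal thymi were dissociated with trypsin and not enriched, whereas NB and adult thymi were digested with Liberase and enriched on Percoll. Dissociation stress genes took 0.0525% of UMIs at E15.5 and 1.13% in NB, so stage and preparation cannot be told apart in this step. The higher one was Mrpl3, whose protein lies near the catalytic centre of the large subunit, from 91.3 to 159 CPM (ratio 1.75, 95% interval 1.66 to 1.84). The lower ones were Mrpl34, a small and basic large subunit protein, from 109 to 67.5 CPM, and Mrpl12, the stalk protein that also binds mitochondrial RNA polymerase, from 182 to 117 CPM. Mrps24, from 567 to 402 CPM, had the next largest decrease, and Mrpl21, from 126 to 167 CPM, and Mrpl27, from 127 to 168 CPM, the next largest increases.

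In the step from NB to adult cTEC most members were lower. Of 75 members, 70 had a lower level in adult cTEC replicate 1, with a median of -0.50 against -0.09 over all 8294 genes and -0.36 over the cytosolic genes. No member was past 1.5-fold higher and 32 were lower, where 14.1% and 14.6% of all genes were. Large and small subunit genes had similar medians, -0.49 and -0.53, and so had members with and without a bacterial homolog, -0.48 and -0.60. The largest decreases were those of Mrpl49, from 61.5 to 23.4 CPM (ratio 0.380, 95% interval 0.281 to 0.504), Mrpl50, from 80.7 to 37.8 CPM, and Mrpl44, which carries a ribonuclease fold, from 49.1 to 21.5 CPM. Against the others, Mrpl33 had 134 and 175 CPM (ratio 1.31, 95% interval 1.17 to 1.46), Mrpl52 262 and 317 CPM, and Mrps21 204 and 230 CPM.

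This step rests on the shallowest library. With only those cTEC that held a Psmb11 or Prss16 UMI, a choice made after seeing the data, the median was -0.43 and 27 members were past the fold downward, beside 13.6% of all genes. With only cells under the cycling limit it was -0.51 with 31 members, beside 1153 of all 8228 genes. Both libraries had the same preparation. Dissociation stress genes took 1.13% of UMIs in NB and 2.10% in adult cTEC replicate 1. Mitochondrially encoded mRNAs took 1.61% and 0.927% in these libraries, and 2.52% in adult cTEC replicate 2. The part of either in the result was not tested.

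Data set 2 held the other view of the adult, from E17.5 to adult cTEC replicate 2. There the members had a median of 0.04, beside 0.01 over all 7728 genes and -0.53 over the cytosolic ribosomal protein genes. Levels were higher for 44 of 75 members and lower for 31, and only 3 were past 1.5-fold in each direction, beside 12.1% of all genes upward and 9.23% downward. In cTEC with a Psmb11 or Prss16 UMI 2 were past it in each direction, beside 11.3% and 9.17%. Where CPM was taken outside the cytosolic genes the median turned to -0.08. Preparation differed here too, and dissociation stress genes took 0.0965% of UMIs at E17.5 and 1.18% in the adult library, so its part cannot be told apart from that of stage. The decreases past the fold were those of Mrps9, from 77.6 to 38.9 CPM, Mrpl45, from 71.2 to 38.4 CPM, and Mrpl43, from 129 to 80.4 CPM. The increases were those of Mrps28, from 43.6 to 113 CPM, Mrpl3, from 74.9 to 129 CPM, and Mrpl33, from 104 to 167 CPM. Mrpl3 was thus past the fold upward both from E15.5 to NB and from E17.5 to the adult, but from NB to the adult it was among the lower ones (159 and 100.5 CPM), and Mrpl33 was higher in the adult than in NB and than at E17.5, though not than in E13.5 TEC (187 CPM).

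**Figure D2:**
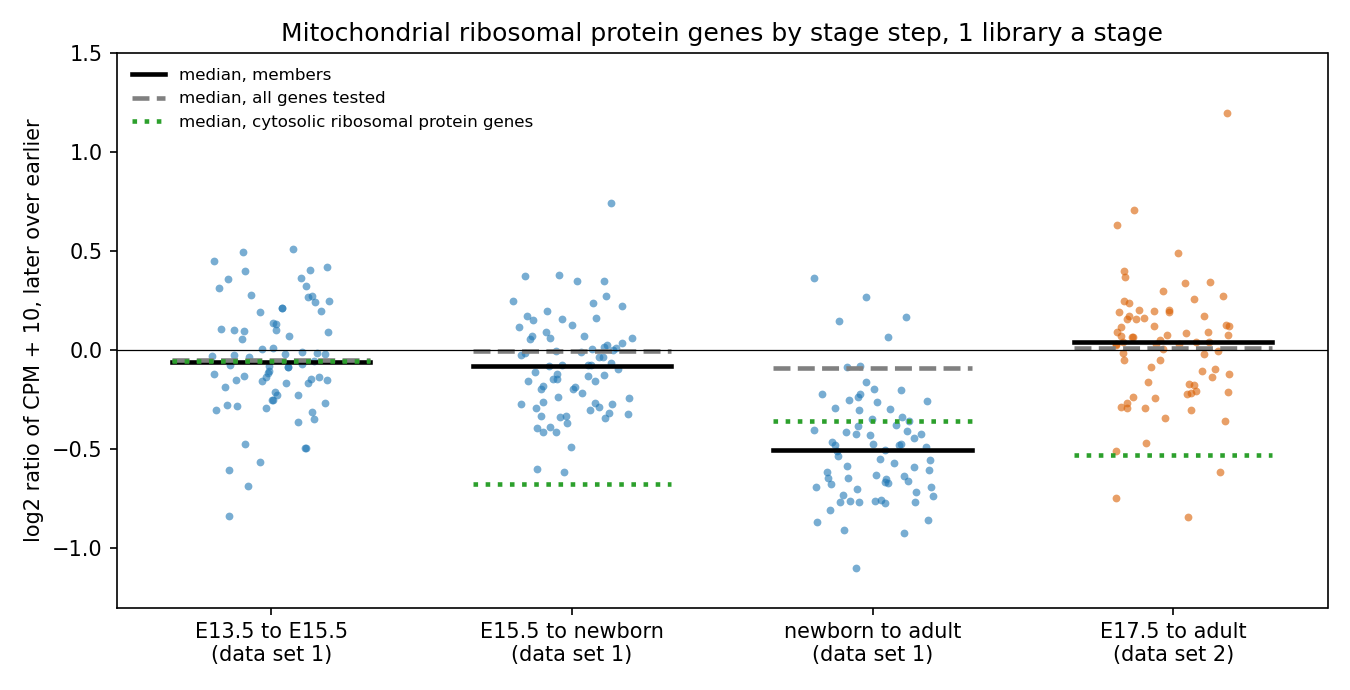
Log2 ratio of CPM + 10 for each member (points, 1 gene each, spread sideways for legibility) in the 4 stage steps, coloured by data set, with the medians of members, of all genes tested and of the cytosolic ribosomal protein genes as lines. Member medians are -0.06, -0.08, -0.50 and 0.04 from left to right, and 46 of 76, 48 of 76, 70 of 75 and 31 of 75 points lie below 0.

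Since most members were lower together from NB to adult cTEC replicate 1, though not from E17.5 to replicate 2, the sequence next to their starts was examined. RefSeq promoter windows of 300 bases around the start (GRCm38.p6) were given for 68 of the 77 members. They were searched on both strands for the letters of motifs known from promoters of housekeeping genes and of Myc targets. The E-box CACGTG, the core that Myc and Max bind, was found for 5 of 68 members (7.35%), for 8.09% of all 27025 genes with a window and for 11.5% of the 10592 of them that were tested for a trend. The ETS letters CCGGAAG were found for 25 members (36.8%), against 9.93% of all genes and 18.7% of tested genes. AAGATGGC, a core of YY1 sites, was found for 12 members (17.6%), against 3.19% and 4.96%. TATAAA occurred for 5 members (7.35%), against 15.7% and 8.97%. The ETS and YY1 letters can overlap by AAG, and a match is a description of letters, not of binding.

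Members with and without each motif were set side by side for the step from NB to adult, with no test. Of members with the ETS letters, 11 of 24 were past 1.5-fold lower from NB to adult, and of those without them 18 of 42, with medians of -0.54 and -0.52. With the E-box the count was 2 of 5, and without it 27 of 61. With the YY1 letters it was 7 of 12 (median -0.595) and without them 22 of 54 (median -0.505), and with TATAAA 3 of 5 and without it 26 of 61. Printed here are 4 windows, of members that the results turn on or that show a motif class. Mrpl3 passed as higher in adult cTEC than mTEC, Mrpl34 passed the stage trend, Mrpl18 had the next smallest p there, and Mrpl37 carries an E-box. Capitals mark matches, which are the ETS letters in Mrpl3, Mrpl34 and Mrpl18, and the E-box followed by the YY1 letters in Mrpl37. The positions are chr9:105053018-105053317 (+) for Mrpl3, chr8:71464676-71464975 (+) for Mrpl34, chr17:12916042-12916341 (-) for Mrpl18 and chr4:107066817-107067116 (-) for Mrpl37.
Mrpl3: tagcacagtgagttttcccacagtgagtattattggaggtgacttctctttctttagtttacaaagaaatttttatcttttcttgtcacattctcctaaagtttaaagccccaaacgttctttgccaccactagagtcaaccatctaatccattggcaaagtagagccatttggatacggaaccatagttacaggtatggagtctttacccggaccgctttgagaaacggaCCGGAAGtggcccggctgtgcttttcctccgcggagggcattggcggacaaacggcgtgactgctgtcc
Mrpl34: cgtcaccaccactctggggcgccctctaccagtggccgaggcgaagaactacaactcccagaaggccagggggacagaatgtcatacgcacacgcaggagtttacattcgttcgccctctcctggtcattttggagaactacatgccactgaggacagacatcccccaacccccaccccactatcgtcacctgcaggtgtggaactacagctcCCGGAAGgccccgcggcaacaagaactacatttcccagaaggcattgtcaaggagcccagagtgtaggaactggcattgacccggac
Mrpl18: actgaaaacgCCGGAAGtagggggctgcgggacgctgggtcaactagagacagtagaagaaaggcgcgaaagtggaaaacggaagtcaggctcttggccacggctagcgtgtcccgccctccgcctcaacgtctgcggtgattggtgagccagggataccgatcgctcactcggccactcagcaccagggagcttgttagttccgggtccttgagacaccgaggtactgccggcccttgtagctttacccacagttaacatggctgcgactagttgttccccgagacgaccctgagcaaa
Mrpl37: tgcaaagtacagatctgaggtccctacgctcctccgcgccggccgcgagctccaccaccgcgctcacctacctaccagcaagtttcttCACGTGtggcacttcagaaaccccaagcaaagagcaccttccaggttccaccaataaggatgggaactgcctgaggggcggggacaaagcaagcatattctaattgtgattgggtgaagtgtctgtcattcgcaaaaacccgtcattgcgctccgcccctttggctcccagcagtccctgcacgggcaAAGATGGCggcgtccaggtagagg

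To ask whether members changed with age, a slope per stage rank was fitted over all 6 libraries of the cortical line (E13.5 as 1 to adult as 5). Data set was a term, and p-values were adjusted over all 14296 genes tested. E13.5 TEC was not gated as cTEC, so gate and stage cannot be told apart at the first rank. Slopes were negative for 67 of 76 members tested, with a median of -0.12 per stage on the log2 scale, where the median of all genes was -0.0013 and that of 82 cytosolic ribosomal protein genes -0.27. These directions rest on adult cTEC replicate 1, since without it the median was -0.016, with 34 members above 0 and 43 below. Few of the slopes exceeded the spread between libraries. In the lower direction 1 member passed, when 7.25% of all genes passed, 2.74% in that direction and 4.51% in the other. This was Mrpl34, with 143, 109, 83.8, 67.5, 50.9 and 64.0 CPM in order of E13.5, E15.5, E17.5, NB and adult cTEC replicates 1 and 2. Its slope was -0.34 per stage (SE 0.074, edgeR adjusted p = 0.0473). Every later stage lay below the one before it, and both adult libraries lay below NB.

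The call was lost when any of 3 libraries was left out, while the slope stayed close. For Mrpl34 the slope was -0.30 without adult cTEC replicate 1 (edgeR adjusted p = 0.221), -0.36 without adult cTEC replicate 2 (edgeR adjusted p = 0.109) and -0.34 without E13.5 TEC (edgeR adjusted p = 0.1003). Without adult cTEC replicate 2, E17.5 is the only library of data set 2 and is taken up by the data set term. The slope of that fit thus rests on data set 1. The fits were not repeated without each of the other libraries. With no data set term Mrpl34 did not pass (-0.29, edgeR adjusted p = 0.0626) and Mrpl18 did instead (-0.34, edgeR adjusted p = 0.0443). At an unadjusted p under 0.05 the fit had 10 of 76 members, all lower, where 12.8% of all genes were lower at that limit. DESeq2 called 8 of 76, all lower, where it called 9.04% of all genes as lower, so both shares were near those of genes at large. These 8 were Mrpl34, Mrpl18, Mrpl45, Mrpl12, Mrpl43, Mrpl30, Mrps15 and Mrpl23, named after their values were seen. Mrpl18, whose protein sits in the central protuberance of the large subunit, began at 391 CPM in E13.5 TEC and had 275 in E15.5 cTEC, 165 in E17.5 cTEC, 208 in NB, and 119 and 133 in adult cTEC (slope -0.34, SE 0.090, edgeR adjusted p = 0.0722). Exons of Mrpl18 overlap those of Tcp1 on the opposite strand. Mrpl12 began at 275 CPM in E13.5 TEC and had 182 in E15.5 cTEC, 108 in E17.5 cTEC, 117 in NB, and 83.2 and 114 in adult cTEC (slope -0.33, SE 0.094, edgeR adjusted p = 0.0835). For both, E13.5 stood above every later library. Both adult libraries lay below all earlier ones for Mrpl18, whereas for Mrpl12 they lay on either side of E17.5.

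The share of cells with at least 0.4% of UMIs in S and G2M phase genes differed along the same line, from 81.2% at E13.5 and 33.8% at E15.5 to 13.99% at E17.5, 15.4% in NB, and 2.66% and 7.06% in adult cTEC. The change of preparation between the fetal and later stages likewise cannot be told apart from the trend. In cells under the cycling limit the slopes had a median of -0.09 and 0 members passed, with 7 of 76 at an unadjusted p under 0.05, beside 23.3% of all genes. The slope of Mrpl34 was -0.33 in those cells (edgeR adjusted p = 0.0576), close to the -0.34 of all kept cells.

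The 2 adult lineages were set against each other over 4 libraries with data set as a term. The cTEC libraries are the same as in the steps and the trend. The clearest difference among the members was that of Mrpl38, a mitochondrion-specific protein of the central protuberance of the large subunit. Its level was 123, 131, 117 and 118 CPM from E13.5 through E15.5 and E17.5 to NB, 104 and 119 in adult cTEC, and 449 and 523 in adult mTEC. All 6 libraries of the cortical line lay within 104 to 131 CPM, and both mTEC libraries lay far above them. In adult cTEC over mTEC the ratio was 0.232 in data set 1 (95% interval 0.202 to 0.265) and 0.227 in data set 2 (95% interval 0.206 to 0.249). The fitted log2 difference was -2.19 (SE 0.41, edgeR adjusted p = 1.3e-06), and it passed under each of the 14 alternatives, with adjusted p from 5.7e-11 to 0.0355. Mrpl38 lies at chr11:116131817-116138868 (GRCm38) and shares no exon sequence with another annotated gene.

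In all, 5 of 76 members passed, 1 higher and 4 lower in cTEC. Over the 15487 genes tested, 33.6% passed, 11.8% higher and 21.8% lower. The 4 libraries leave 1 degree of freedom, so the spread is largely that which edgeR borrows from other genes. Member differences had a median of -0.13, beside -0.14 over all genes. It was -0.025 in cells under the cycling limit. With no data set term it was -0.11, and with a library left out besides it was 0.052 without adult cTEC replicate 1 and -0.35 without adult cTEC replicate 2, so that its direction rests on single libraries. Mrpl13, a large subunit protein with a bacterial homolog, had 131 CPM in E13.5 TEC, 111 in E15.5 cTEC, 73.2 in E17.5 cTEC, 89.9 in NB, 71.0 and 75.7 in adult cTEC, and 157 and 170 in adult mTEC. The adult groups did not overlap, and the log2 difference was -1.22 (SE 0.39, edgeR adjusted p = 0.00745). Exons of Mrpl13 overlap those of Mtbp on the opposite strand. Mrpl11, at the base of the stalk where translation factors dock, had 55.6 and 73.5 CPM in adult cTEC and 117 and 118 in adult mTEC (log2 difference -0.94, SE 0.39, edgeR adjusted p = 0.0458). Mrpl45, which lies at the exit tunnel and helps to hold the ribosome at the inner membrane, had 28.5 and 38.4 CPM in adult cTEC and 55.8 and 67.8 in adult mTEC (log2 difference -0.96, SE 0.39, edgeR adjusted p = 0.0461).

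Mrpl3 was the member that was higher in cTEC. E13.5 TEC had 69.1 CPM, E15.5 cTEC 91.3, E17.5 cTEC 74.9 and NB cTEC 159, beside 100.5 and 129 in adult cTEC, and 51.3 and 39.9 in adult mTEC. Exons of Mrpl3 overlap an annotated gene model, Gm38077, on the same strand. Every library of the cortical line lay above both mTEC libraries, and the log2 difference in the adult was 1.27 (SE 0.39, edgeR adjusted p = 0.00514). Mrpl38, Mrpl13 and Mrpl3 also passed in cTEC with a Psmb11 or Prss16 UMI, with edgeR adjusted p of 0.000828, 0.0219 and 0.0132, and under DESeq2. Mrpl11 and Mrpl45 did not, at 0.0925 and 0.116 with edgeR. Fits that left out 1 library had to drop the data set term too. In these, Mrpl3 passed only without adult cTEC replicate 1, with edgeR adjusted p of 0.0407 to 0.256, and Mrpl13 only without adult cTEC replicate 2, with 0.0459 to 0.181.

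**Figure D3:**
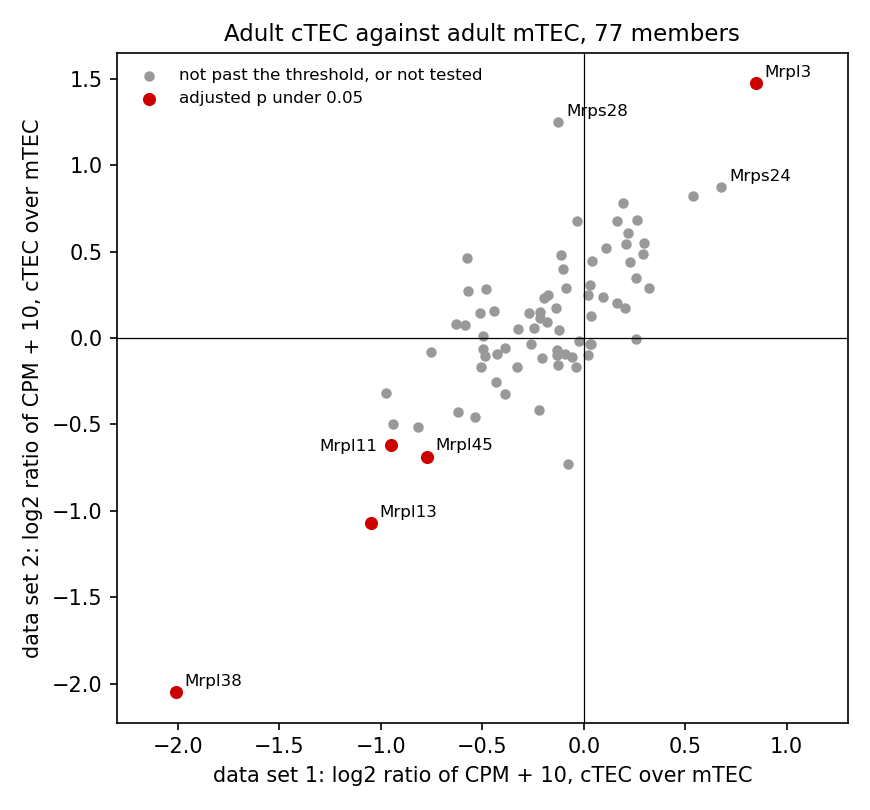
Log2 ratio of CPM + 10 in adult cTEC over adult mTEC for each of the 77 members, in data set 1 (horizontal) and data set 2 (vertical), with members past the threshold in red. Mrpl38 lies alone at -2.01 and -2.05, and the members differ in direction between data sets where points fall in the upper left or lower right.

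The 2 data sets did not give the same balance of the other members. In CPM, 21 members were higher in cTEC in both data sets, 29 were lower in both, and 27 had opposite directions. In data set 1 the median log2 ratio was -0.13 over 74 members, with 2 past 1.5-fold higher and 11 lower, when 26.3% and 19.6% of all genes were. In data set 2 it was 0.08 over 75 members, with 9 past the fold higher and 5 lower, when 21.8% and 18.8% of all genes were. In cTEC with a Psmb11 or Prss16 UMI the counts were 3 higher and 11 lower in data set 1, beside 27.2% and 20.1% of all genes, and 10 and 4 in data set 2, beside 22.6% and 19.7%. In the same data sets the cytosolic genes had medians of -0.47 and -0.33. The least steady member was Mrps28, with 102 and 112 CPM in cTEC and mTEC of data set 1, and 113 and 41.7 CPM in those of data set 2. E17.5, also of data set 2, had 43.6 CPM, while E13.5, E15.5 and NB had 85.8, 118 and 144 CPM. Its fitted difference was 0.59 (SE 0.40, edgeR adjusted p = 0.259).

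**Figure D4:**
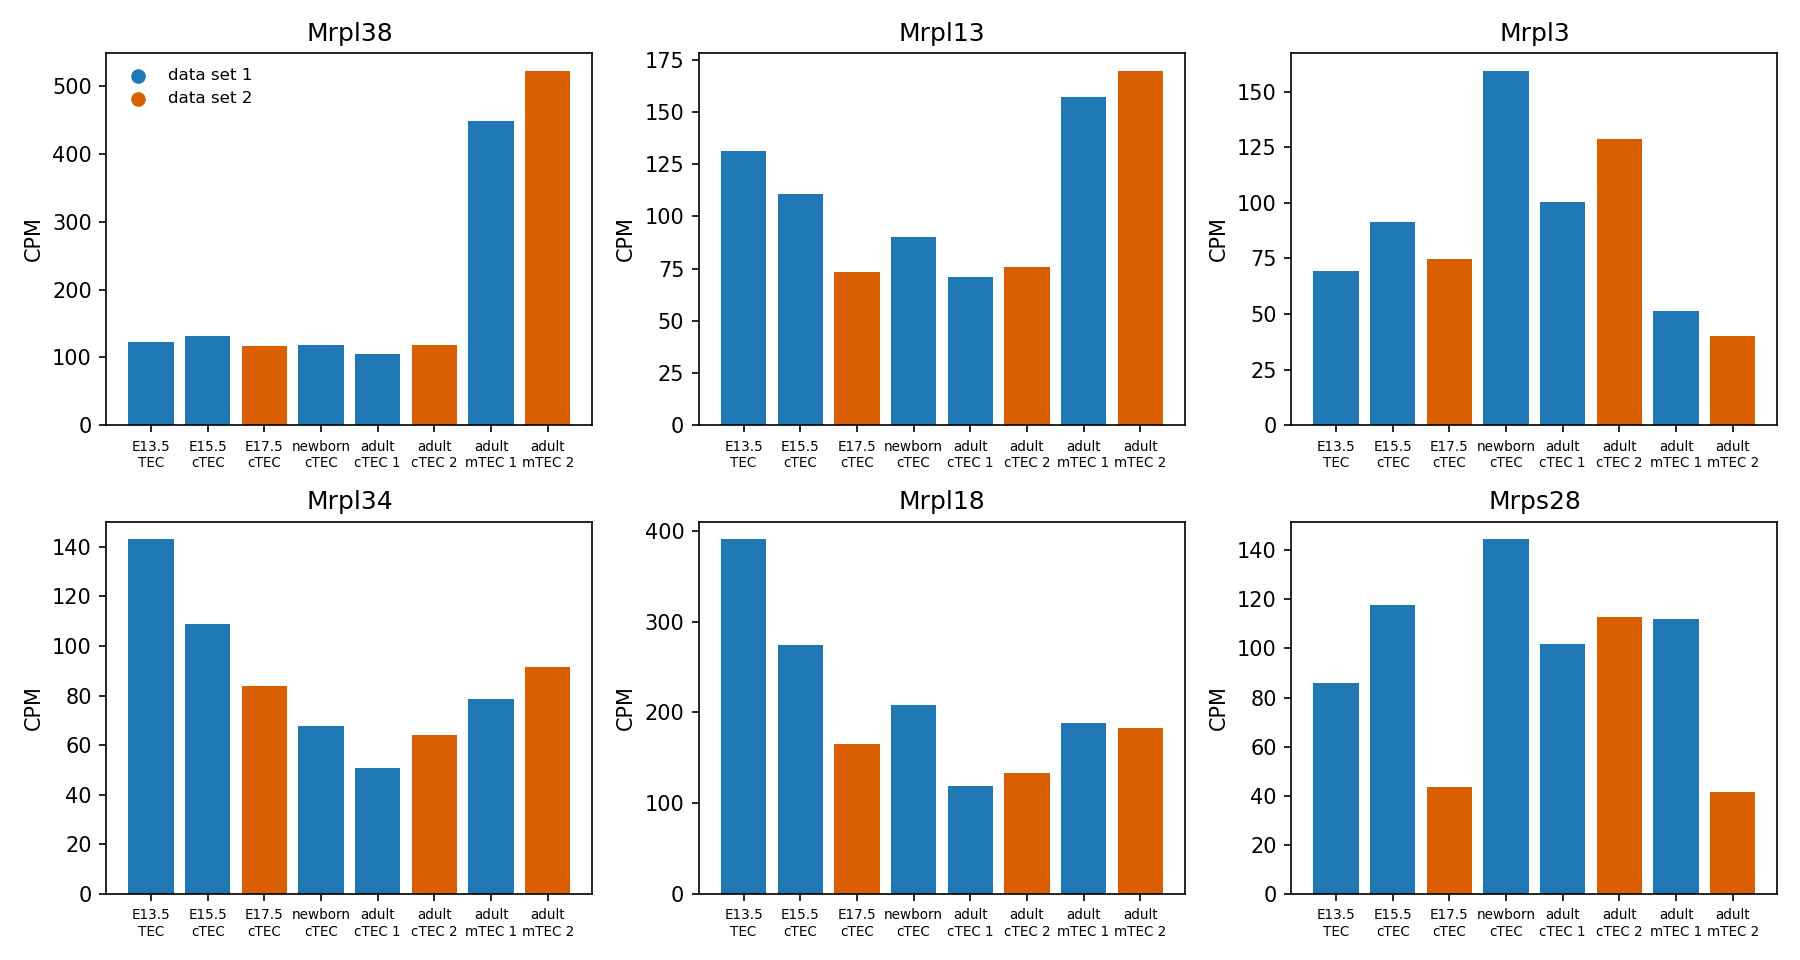
CPM of 6 members in each of the 8 libraries, 1 bar a library, coloured by data set. Mrpl38 is at 104 to 131 CPM in the cortical line and at 449 and 523 in adult mTEC, Mrpl34 and Mrpl18 are highest at E13.5, and Mrps28 is low in E17.5 and in mTEC replicate 2.

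Adult mTEC are a mixture, in which Aire marks the cells that express tissue-restricted antigens and Ccl21a the cells that make a chemokine for incoming thymocytes. The levels of the members that differed were therefore given for cells split by these transcripts, a description chosen after the values above were seen. An Aire UMI was found in 50.8% and 74.7% of adult mTEC and in 1.64% and 0.784% of adult cTEC. In mTEC replicate 1, Mrpl38 was at 596 CPM (95% interval 581 to 611) in 793 cells with an Aire UMI. It was at 175 CPM (164 to 187) in 657 cells without one whose Ccl21a took at least 0.1% of UMIs, and at 362 CPM (324 to 404) in the 110 others. In replicate 2 the values were 561 CPM (554 to 567) in 4115 cells, 265 CPM (253 to 278) in 769 cells and 432 CPM (413 to 452) in 626 cells. The order was the same in both replicates, and even the Ccl21a cells lay above the 104 and 119 CPM of adult cTEC.

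Mrpl13 had the same order, with 208, 66.8 and 96.4 CPM in replicate 1 and 181, 98.0 and 137 CPM in replicate 2 for Aire, Ccl21a and other cells. The Ccl21a cells of replicate 1 were thus no higher in Mrpl13 than the 71.0 and 75.7 CPM of adult cTEC. Mrpl11 was at 143, 69.5 and 94.2 CPM in the same classes of replicate 1 and at 123, 87.1 and 103 CPM in replicate 2, so that the Ccl21a cells of replicate 1 lay between the 55.6 and 73.5 CPM of adult cTEC. Mrpl45 was at 63.8, 41.6 and 46.0 CPM and at 70.6, 51.8 and 56.5 CPM, in each class above the 28.5 and 38.4 CPM of adult cTEC. The members as a whole had this order too, with 0.803%, 0.614% and 0.743% of UMIs in replicate 1 and 0.740%, 0.651% and 0.721% in replicate 2. Mrpl3 was low in all of these cells, between 30.2 and 53.1 CPM. In adult cTEC it was at 116 and 140 CPM in cells with a Psmb11 or Prss16 UMI and at 55.3 and 64.0 CPM in cells without. Mrpl38 gave no common direction there, with 117 CPM with and 66.3 CPM without such a UMI in replicate 1 (intervals 101 to 135 and 46.5 to 91.8) and 113 and 153 CPM in replicate 2 (102 to 125 and 122 to 189). Cells with the named UMIs were deeper, at medians of 12419 and 13053 UMIs for Aire cells against 7315 and 7830 for Ccl21a cells. Shallow cells may miss an Aire UMI and fall into another class, and the part of this in the CPM of each class was not tested.

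Cycling cells were compared with the others of their own library. Summed member counts took a larger share of UMIs in cycling cells in 6 of 8 libraries, with a mean difference of 0.0509 percentage points (SD 0.0612, n = 8). The exact two-sided sign-flip permutation test gave p = 0.0469, where the smallest p it can give is 0.00781. The differences were 0.162 and 0.111 points in adult mTEC, 0.0782 at E13.5, 0.0337 at E15.5, 0.0288 and -0.00230 in adult cTEC, 0.00956 at E17.5 and -0.0140 in NB. Both mTEC libraries thus had the largest differences, and those of the cortical line after E13.5 lay between -0.0140 and 0.0337. In mTEC the member share also differed between Aire and Ccl21a cells, as given above, and the part of these classes in the cycling difference was not tested. With a limit of 0.3% in place of 0.4% the mean was 0.0440 points and the test no longer passed (exact permutation p = 0.0938). Leaving out single libraries gave exact permutation p from 0.0312 to 0.0938, and without adult mTEC replicate 1 the mean was 0.0350 points.

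The members did not share 1 direction in this comparison. Of 75 members of at least 10 CPM, 9 were higher in cycling cells in all 8 libraries, where 11.1% of all 8490 genes were, a share near that of the members. Mrpl49 and Mrpl28 had the largest median log2 ratios among these, 0.54 and 0.45. Mrpl38 alone was lower in all 8, where 11.6% of all genes were, by a median of -0.30, with -0.23 and -0.33 in adult mTEC and -1.14 and -1.27 in adult cTEC, where only 13 and 36 cells were cycling.

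**Figure D5:**
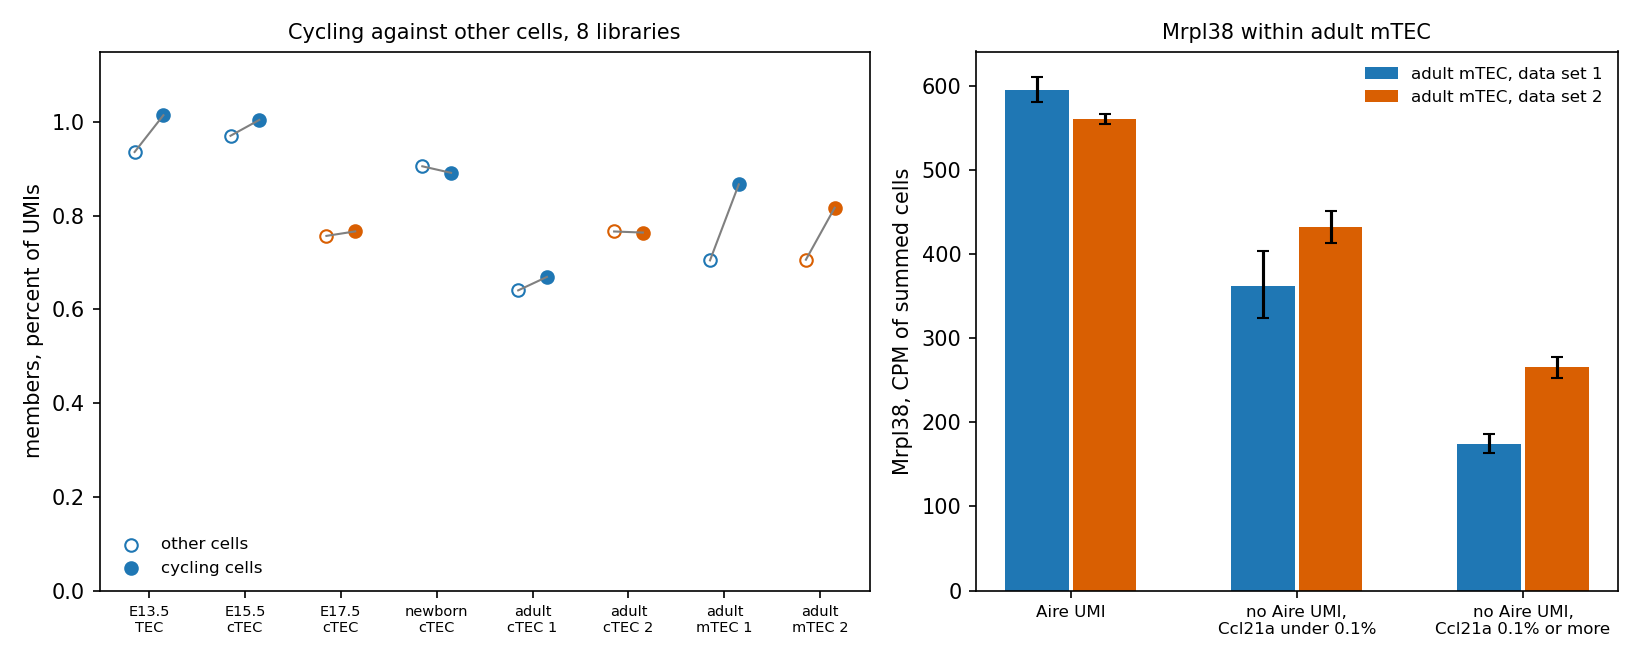
Left, member share of UMIs in percent in cycling (filled) and other cells (open) of each library, joined by a line. Right, Mrpl38 in CPM of summed cells in 3 classes of adult mTEC, with exact 95% Poisson intervals as error bars, highest in cells with an Aire UMI at 596 and 561 CPM.

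The other genes that make or serve the mitochondrial ribosome were given by lists. In the stage trend none of 6 mitoribosomal proteins with other names, 13 translation factors, 24 assembly factors, 19 transcription and RNA factors, 17 aminoacyl-tRNA synthetases and 13 mitochondrially encoded mRNAs passed, with median slopes between -0.14 and -0.07. Slopes below 0 were found for 6 of 6, 10 of 13, 17 of 24, 13 of 19, 15 of 17 and 10 of 13, beside 7178 of all 14296 genes. In contrast, 28 of 43 S phase genes and 26 of 54 G2M phase genes passed as lower, beside 2.74% of all genes. Of 14 dissociation stress genes 13 passed as higher, beside 4.51% of all genes. For all of these lists, directions without adult cTEC replicate 1 were not tallied.

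Between adult cTEC and mTEC, 8 of 14 dissociation stress genes were higher in cTEC, beside 11.8% of all genes. Lower were 17 of 43 S phase and 17 of 54 G2M phase genes, beside 21.8% of all genes. The part of these lists in the member differences was not tested. None of 6 other mitoribosomal proteins and 12 translation factors tested passed. Counts higher and lower in cTEC were 1 and 0 of 24 assembly factors and 1 and 1 of 19 transcription and RNA factors. They were 0 and 2 of 16 synthetases and 2 and 2 of 13 mitochondrially encoded mRNAs, where 11.8% and 21.8% of all genes passed. Rnmtl1, which methylates the RNA of the large subunit, was higher in cTEC, at 14.02 and 23.3 CPM against 7.93 and 6.26 (log2 difference 1.34, SE 0.45, edgeR adjusted p = 0.0115). Rexo2, a ribonuclease that degrades short RNA in mitochondria, was higher as well, at 196 and 184 CPM against 110 and 82.8 (0.93, SE 0.39, edgeR adjusted p = 0.0473). Lower in cTEC were the synthetases Fars2, at 26.6 and 28.6 CPM against 59.7 and 68.1, and Lars2, at 7.94 and 4.50 CPM against 12.4 and 17.6. Polg2, an accessory subunit of the mitochondrial DNA polymerase, was lower at 22.0 and 19.0 CPM against 36.9 and 41.4. Of the mitochondrially encoded mRNAs, mt-Co2 (-1.44, edgeR adjusted p = 0.0103) and mt-Atp6 (-1.59, edgeR adjusted p = 0.0114) passed as lower, but mainly through data set 1. mt-Co2 was at 404 CPM in cTEC and 2555 in mTEC of data set 1, and at 1828 and 1946 in data set 2. mt-Atp6 was at 823 and 7565 CPM in data set 1, and in data set 2 it had the other direction, at 5508 and 5004. Higher were mt-Nd6, at 48.1 and 12.96 CPM against 14.3 and 7.88 (1.18, edgeR adjusted p = 0.0188), and mt-Atp8, at 34.6 and 45.2 CPM against 8.85 and 29.1 (1.21, edgeR adjusted p = 0.0150). mt-Atp8 overlaps mt-Atp6, so reads may be split between them. Those mRNAs also decide which cells pass the limit of 5% mitochondrial UMIs, and the part of that limit in their levels was not tested.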

How the data were processed

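Sorted cells of 8 libraries were captured with the 3′ Chromium kit (v2 chemistry) as 2 data sets. Per the labels and methods of the authors, reads were processed with bcl2fastq 2.17 and Cell Ranger 2.0.1 (STAR 2.5.1b, build mm10), while version 3.0.1 stands in the file headers of data set 2. The deposited matrices hold raw UMI counts per gene and called cell, with no normalization.

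The limits of the authors were applied (at most 5% mitochondrial UMIs and 5000 genes per cell), and 477 cells that showed several markers of a non-epithelial class (at least 4 thymocyte, myeloid, endothelial or mesenchymal genes, or 3 erythroid, parathyroid or thyroid genes) were left out. The study removed such cells by cluster instead. No doublet caller was run. The 27514 genes of both lists were used, counts were summed per library, and CPM was taken of all summed UMIs. The trend and the adult comparison were fitted with edgeR 4.0.16 in R 4.3.3 (filterByExpr, TMM, quasi-likelihood test, data set as a term), with Benjamini-Hochberg adjustment over all genes and a threshold of 0.05. SE is the estimate over the root of F. In simulated counts 200 genes were changed, by 1 per stage for the trend and by 2 for the adult comparison, on the log2 scale. The trend fit recovered 181 and the adult fit 180, with 7.65% and 4.76% of calls false. All member slopes, and all adult member differences but that of Mrpl38, were smaller than these changes. Recovery of changes of their size was not simulated. Members, lists and tests were chosen with earlier results of these data known. Named were members past the threshold, the 5 highest and 3 lowest in mean CPM, the 3 with the largest ratios in each direction per step, and listed genes past the threshold. Positions are from GENCODE for GRCm38, and promoters from RefSeq. Alternatives were other scalings, DESeq2 1.42.0, filters, cell sets, limits and left-out libraries. UMI intervals cover counting error only.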

Additional observations from a re-analysis of the deposited data

Results flagged for a closer look

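The share of UMIs of mitochondrial ribosomal protein genes in cycling minus other cells was -0.0140 percentage points in the NB cTEC library. It was above 0 in each of the 3 fetal libraries and in both adult mTEC libraries, and the adult cTEC libraries had 0.0288 and -0.00230. The value stood out for its sign, opposite to that of the fetal and mTEC groups. The difference between the groups was not tested, since NB had 1 library.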

How the results depend on the processing

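The count of members past the threshold in the stage trend, 1 with the settings of the report, was 8 with DESeq2. It was 0 with no filter on low counts, in cells under the cycling limit, without E13.5 TEC, in data set 1 only and without either adult cTEC replicate. The slopes without adult cTEC replicate 2 also rest on data set 1, so these are not separate checks. With no replicate block (no data set term) the count was 1 again, but Mrpl18 in place of Mrpl34. Calls over all genes, 1036, were 2839 with DESeq2, 604 under the cycling limit and 387 in data set 1 only, and 22 to 439 without single adult cTEC replicates. The median member slope, -0.12, was below 0 under all 15 alternatives, but it was -0.016 without adult cTEC replicate 1.

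For adult cTEC against mTEC the 5 members were 3 with DESeq2, with no filter, with all cells within the limits, under the cycling limit, in cTEC with a Psmb11 or Prss16 UMI (chosen after seeing the data) and with no replicate block (no data set term), and 1 to 3 in fits without single libraries, which also drop that term. The data set is the block here, since the adult replicates differ by it. Calls over all genes, 5198, were 2576 with DESeq2, 4220 with no data set term, and 1574 to 2463 with that term dropped and a single library left out. Mrpl38 passed under all 14 alternatives. At a smaller fold limit (0.32 on the log2 scale), 56 of 75 members were lower from NB to adult, beside 31.2% of all genes, and the median ran from -0.56 to -0.43 over the 8 alternatives. The cycling difference was 0.0440 points at a limit of 0.3%, 0.0785 as a share outside the cytosolic genes (exact permutation p = 0.0234, higher in 7 of 8 libraries), and 0.0350 to 0.0601 without single libraries. The cause of these changes was not tested. Each stage below the adult rests on 1 library, and adult cTEC replicate 1 had the fewest member UMIs, 13725.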
